A study of Mus musculus with 3 samples.

Results

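The ribosome biogenesis genes are 40 mouse genes for proteins that make, modify and assemble the RNA and protein of the ribosome. They were chosen by name, with earlier results of these data known and no threshold on their signals, and all 40 had at least 1 named probe. Together they held 68 probes, among 22911 named genes and 56605 probes in all. The genes were put in 6 roles, which were RNA polymerase I, the box C/D particles, the box H/ACA particles, nucleolar proteins, small subunit assembly and large subunit assembly.

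Transcript levels were measured in Colon26, a murine colon adenocarcinoma line, in its high-metastatic subline LuM1, and in its low-metastatic subline NM11. No line carried a transgene or received an agent, as far as the labels state. The cells grew for 3 days, and 1 single-colour array per line received label from 0.1 µg of its total RNA. As each line had a single array, no difference below has a replicate check or a test. Each line was 1 RNA sample of mixed cells, so a lower level in every cell and fewer cells with the transcript cannot be told apart.

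Ribosomes are built in the nucleolus. RNA polymerase I copies the ribosomal DNA into a long precursor RNA. Small nucleolar RNA-protein particles guide its cleavage and the modification of single nucleotides, and large transient complexes then fold, trim and export the small and the large subunit. The genes for these factors are usually most active in growing cells, and many of them are known targets of the transcription factor Myc.

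All 3 arrays shared 1 slide and 1 scan. Between 49.9% and 53.8% of the probes were well above background, which is the scanner software's mark for a clearly detected spot, and no spot was saturated. Signals were scaled so that the 75th percentile of every array was 585.1. The mean scaled signal was lowest for LuM1 (2130), against 2675 for Colon26 and 2599 for NM11, so bright spots were dimmer on the LuM1 array. Of 10 colon epithelial markers, 4 were well above background in Colon26 cells, 5 in LuM1 cells and 4 in NM11 cells, while *Cdh1*, *Krt18*, *Krt19*, *Vil1* and *Cldn3* were so in none. The summed signal of the detected epithelial markers was 1215 in Colon26 cells, 480 in LuM1 cells and 455 in NM11 cells. In the same order, *Krt20* read 651, 54.5 and 157, and *Cdx2* read 443, 231.7 and 167.2. *Cdx2* was thus the largest part in LuM1 and NM11 cells. *Cldn7* read 91.4, 58.1 and 93.6. *Krt8* was highest in LuM1 cells, at 28.9, 107.6 and 37.1, and *Epcam* was well above background only there, at 28.0. Of 6 leukocyte markers, *Cd3e*, *Itgam* and *Csf1r* were well above background in every line, while *Ptprc* and *Adgre1* were so in none. The summed signal of the detected leukocyte markers was 6337 in Colon26 cells, 8070 in LuM1 cells and 5479 in NM11 cells. The part of either set of markers in the results was not tested. Of 4 endothelial markers, only *Pecam1* was well above background, at 51.3 in Colon26 cells, 53.0 in LuM1 cells and 78.3 in NM11 cells.

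Each of the 40 ribosome biogenesis genes was clearly detected in every line. The scaled signal was lowest in LuM1 cells for 40 of 40 genes. Among all 12249 named genes that were well above background on every array, LuM1 cells were lowest for 45.7%. The scanner software gives each spot an error of about 10% of its signal, which comes to 0.20 on the log2 scale for a ratio of 2 arrays. This error covers the reading of the spot and not the spread between cultures. For 38 of the 40 genes, the LuM1 level was below both other levels by more than this error, against 31% of all named genes. The exceptions were *Wdr75*, whose LuM1 and Colon26 levels were within the error, and *Nop10*, whose LuM1 and NM11 levels were within it. LuM1 was the lowest line for 38 of the 40 genes when arrays were scaled to *Hprt* or normalized by quantiles, and for 36 under the authors' processed values. The share of all named genes was not recomputed under these settings.

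**Figure D1:**
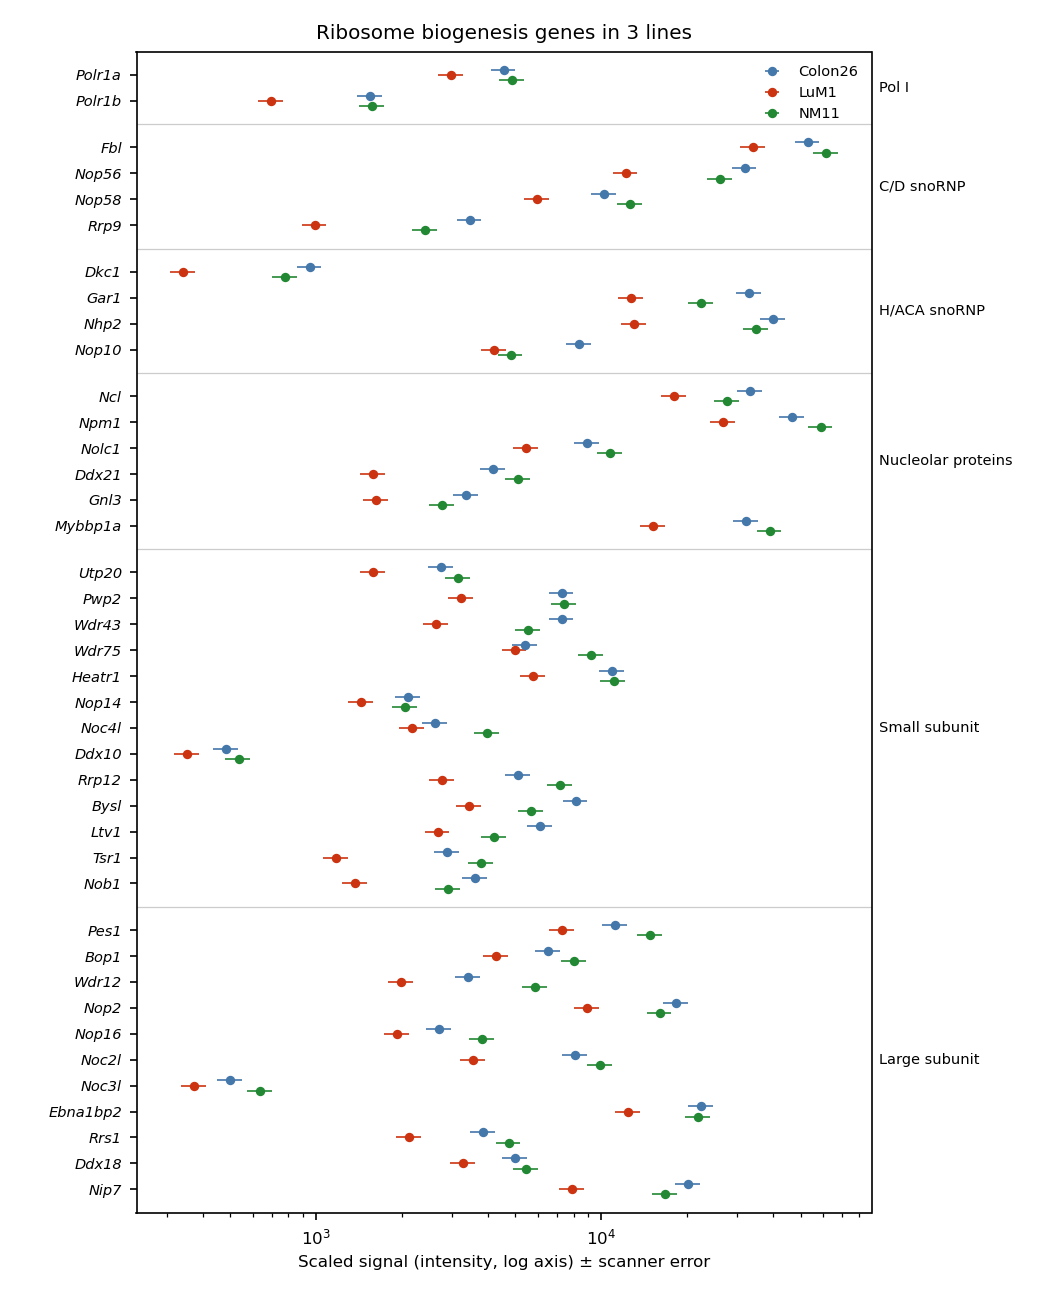
Scaled signal of each ribosome biogenesis gene (log axis, arbitrary intensity units) in Colon26, LuM1 and NM11 cells, 1 array each, grouped by role. Bars are the scanner software's error, and levels are not comparable between genes since each comes from its own probe. With this scaling to the 75th percentile, the LuM1 point lies to the left of both other points for 40 of 40 genes. Under *Hprt* scaling this holds for 38 genes and under the authors' values for 36.

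In LuM1 cells, 40 of 40 genes were lower than in Colon26 cells, and 39 were lower by more than the scanner error. The background shares among all named genes were 58.3% lower and 44.6% lower by more than the error. The 40 genes had a median log2 ratio of -0.90 between LuM1 and Colon26 cells, against -0.13 for all measured genes. A fall of 2-fold or more from Colon26 to LuM1 cells was seen for 18 of the 40 genes and 11.8% of all named genes with a ratio. At least 2-fold higher were 0 of the 40 genes and 13.1% of all named genes. Under the factors that the authors' own processed values carry, the median of the 40 genes was -0.46. At least 2-fold lower were then 4 of the 40 genes and 6.09% of all named genes. Of all genes past 2-fold, 77.7% were higher in LuM1 cells in place of 52.5%. These factors moved the median of all genes as well, by 0.45, so the distance of the 40 genes from all genes was -0.77 with either.

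Against NM11 cells, 40 of 40 genes were again lower in LuM1 cells, and 39 were lower by more than the scanner error. The corresponding shares among all named genes were 57% and 42%. The median log2 ratio of LuM1 over NM11 was -0.99 over the 40 genes and -0.11 over all measured genes. At least 2-fold lower were 19 of the 40 genes and 8.5% of all named genes, and at least 2-fold higher were 0 of the 40 genes and 11.1% of all named genes. Scaling to the reference gene *Hprt*, which was itself higher in NM11 cells, gave a median of -0.40 over the 40 genes, with 2 genes higher and 2 at least 2-fold lower, moved the median of all genes by 0.59, and raised the higher share of all genes past 2-fold from 56.6% to 87.8%. The authors' values gave a median of -0.58 with 1 gene higher. At least 2-fold lower were 5 of the 40 genes and 4.43% of all named genes, and the higher share of all genes past 2-fold was 81.4%. The comparisons with Colon26 cells and with NM11 cells share the LuM1 array, so they are not independent of each other.

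In 13 genes the LuM1 level was below both other levels by 2-fold or more, against 3.96% of all named genes. They were *Polr1b*, *Nop56*, *Rrp9*, *Dkc1*, *Nhp2*, *Ddx21*, *Mybbp1a*, *Pwp2*, *Wdr43*, *Tsr1*, *Nob1*, *Noc2l* and *Nip7*. Each of the 6 roles held at least 1 of these genes. The count was 7 without scaling, 6 under quantile normalization, 2 (*Ddx21* and *Tsr1*) under *Hprt* scaling and 1 (*Nhp2*) under the authors' values. For these settings the share of all named genes was not recomputed. A further 16 genes were less than 2-fold lower in both comparisons.

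Between NM11 and Colon26 cells the genes differed in both directions. The level was higher in NM11 cells for 24 of the 40 genes and lower for 16, and the median log2 ratio of NM11 over Colon26 was 0.12 over the 40 genes and -0.02 over all measured genes. Higher in NM11 cells by more than the scanner error were 17 of the 40 genes, against 30.6% of all named genes. A further 12 genes were lower by more than the error, against 34.9% of all named genes, and 11 were within it, against 34.5%. Lower in LuM1 and higher in NM11 than in the parental cells, both beyond the error, were 16 of the 40 genes, against 6.56% of all named genes. Under *Hprt* scaling 1 gene, *Wdr12*, had this pattern. Nearly all of the 40 genes were lower in LuM1 cells, so the count of 16 largely repeats the 17 genes higher in NM11 cells. No ribosome biogenesis gene differed 2-fold between NM11 and Colon26 cells, while among all named genes 7.89% were at least 2-fold lower and 8.34% at least 2-fold higher. Scaling to *Hprt* turned the direction of the median, to -0.37, with 4 genes higher in NM11 cells and 5 genes at least 2-fold lower. Under that scaling the median of all genes was -0.51, and 20.1% of all genes were at least 2-fold lower.

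**Figure D2:**
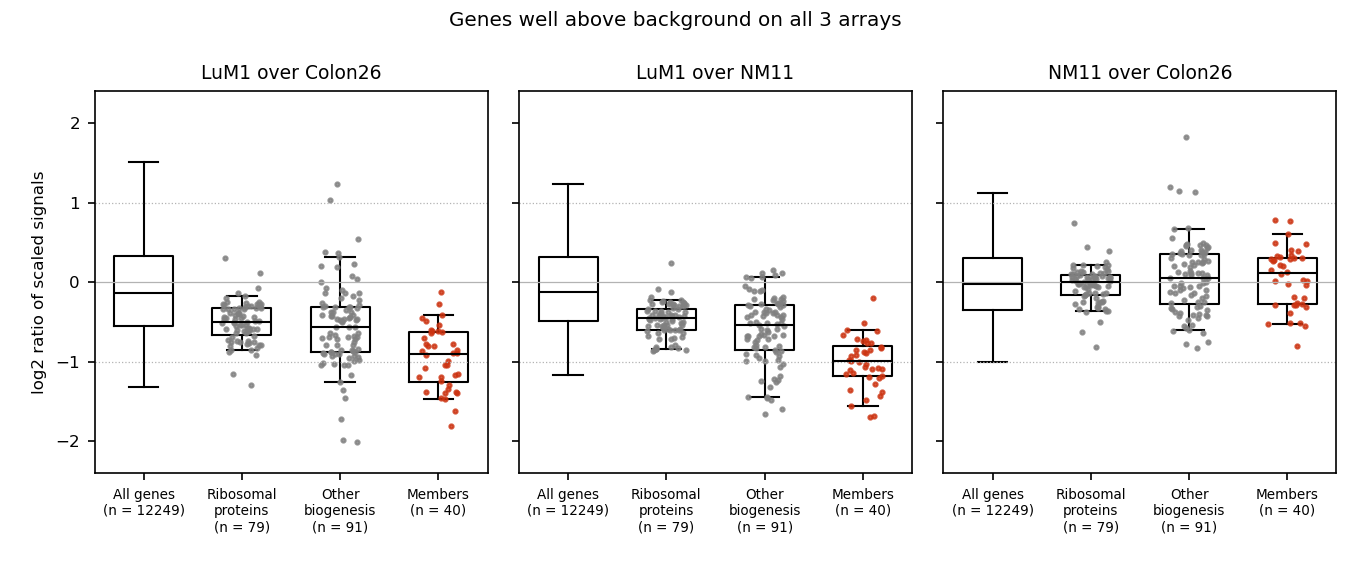
Log2 ratios of scaled signals for genes well above background on all 3 arrays, in each pair of lines. Boxes give the median and quartiles and whiskers the 5th and 95th percentiles, points are single genes, dotted lines mark 2-fold, and the 40 ribosome biogenesis genes (members) have medians of -0.90, -0.99 and 0.12 in the panels from left to right.

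The start regions of the genes are shown next because all 40 genes were lowest in the same line. RefSeq windows on the assembly GRCm38.p6, from 250 bases before to 50 bases after the start, were at hand for 35 of the 40 genes, and *Bop1*, *Fbl*, *Npm1*, *Rrp12* and *Rrs1* had none. The letters CACGTG, the canonical E-box to which Myc with Max can bind, read the same on both strands. They lay in the window of 7 of 35 genes (20%), of 8.09% of all 27025 genes with a window, and of 11.7% of the 9807 such genes that were well above background on all arrays. Other ribosome biogenesis genes held it in 21.2% of 80 windows and cytosolic ribosomal protein genes in 10.3% of 58. The genes with an E-box were *Mybbp1a*, *Utp20*, *Wdr43*, *Ltv1*, *Tsr1*, *Pes1* and *Nop2*. Below are the stretches of the 4 of them with the lowest ratios of LuM1 over Colon26, 5′ to 3′ on the strand of the gene. Capitals mark the E-box and, in *Tsr1*, also CCGGAAG, the core to which ETS factors can bind.
Wdr43, chr17:71616145-71616244, plus strand: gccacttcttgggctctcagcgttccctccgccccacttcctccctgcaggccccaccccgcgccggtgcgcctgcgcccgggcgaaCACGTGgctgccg
Tsr1, chr11:74898010-74898109, plus strand: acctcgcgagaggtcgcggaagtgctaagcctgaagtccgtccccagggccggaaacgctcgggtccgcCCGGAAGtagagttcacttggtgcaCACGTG
Ltv1, chr10:13193092-13193121, minus strand: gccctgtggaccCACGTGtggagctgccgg
Mybbp1a, chr11:72441347-72441376, plus strand: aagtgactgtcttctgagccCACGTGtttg

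In these 4 genes the E-box lay downstream of the start, with its first base at position 18 in *Wdr43*, 25 in *Tsr1*, 29 in *Ltv1* and 41 in *Mybbp1a*, counted from 1 at the first base after the start. Between LuM1 and Colon26 cells, the median log2 ratio was -1.08 for genes with an E-box (n = 7) and -0.96 for those without (n = 28). Genes with and without these letters in the window were thus lower. Letters outside the window were not searched, and the part of the E-box in the lower level was not tested. The ETS letters, CCGGAAG or CTTCCGG on the other strand, were searched after the ratios were known. They lay in 13 of 35 windows (37.1%), in 9.93% of all genes with a window and in 20.2% of those well above background on all arrays. Among other ribosome biogenesis genes they lay in 47.5% of 80 windows, and among cytosolic ribosomal protein genes in 41.4% of 58 windows. Between LuM1 and Colon26 cells, genes with the ETS letters had a median log2 ratio of -1.17 and those without had -0.94, while over NM11 the medians were -0.93 and -1.01. A match of letters is no sign that a factor binds there.

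For RNA polymerase I, which transcribes the ribosomal DNA, both subunits on the list were lower in LuM1 cells. *Polr1a*, the largest subunit, read 4542 ± 454 in Colon26 cells, 2975 ± 298 in LuM1 cells and 4864 ± 486 in NM11 cells (scaled signal ± scanner error). *Polr1b*, the subunit that forms the catalytic centre with it, read 1551 ± 155, 694 ± 69.5 and 1569 ± 157 in the same order. Colon26 and NM11 levels of both subunits were within the error of each other, and the LuM1 level of *Polr1b* was 2.23-fold lower than in Colon26 cells and 2.26-fold lower than in NM11 cells. For *Polr1a* these folds were 1.53 and 1.64.

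The box C/D particles carry the enzyme that methylates the ribose of ribosomal RNA, and all 4 of their genes were lower in LuM1 cells. *Rrp9*, a protein particular to the U3 particle that directs early cleavage of the precursor, had the lowest ratio to Colon26 cells of all 40 genes. It read 3453 ± 345 in Colon26 cells, 988 ± 98.9 in LuM1 cells and 2409 ± 241 in NM11 cells, a log2 ratio of -1.80 ± 0.20 of LuM1 over Colon26 and of -1.29 ± 0.20 of LuM1 over NM11. Its NM11 level lay between the other two.

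*Nop56*, a scaffold of the same particles, read 31809 ± 3181, 12166 ± 1217 and 26122 ± 2612 in Colon26, LuM1 and NM11 cells. Its partner *Nop58* read 10193 ± 1019, 5950 ± 595 and 12591 ± 1259. *Fbl*, which encodes the methyltransferase fibrillarin, read 52874 ± 5287, 34064 ± 3406 and 61463 ± 6146. By their brightest probes the partners ranked Colon26 and NM11 in opposite order. *Nop56* was higher in Colon26 cells and *Nop58* and *Fbl* were higher in NM11 cells, each beyond the scanner error. *Fbl* was only just beyond it, with a log2 ratio of NM11 over Colon26 of 0.22 ± 0.20. The second *Nop56* probe was within the error, at -0.20 ± 0.20. Under *Hprt* scaling, neither *Nop58* nor *Fbl* was higher in NM11 cells beyond the error. Against NM11 cells, the LuM1 level was 2.15-fold lower for *Nop56*, 2.12-fold lower for *Nop58* and 1.80-fold lower for *Fbl*.

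The box H/ACA particles, which convert uridine of ribosomal RNA to pseudouridine and are also part of telomerase, had a median log2 ratio of -1.42 between LuM1 and Colon26 cells. This median was lower than that of each of the other roles. *Dkc1*, the pseudouridine synthase dyskerin, read 949.5 ± 95.1 in Colon26 cells, 341.8 ± 34.5 in LuM1 cells and 778.7 ± 78.0 in NM11 cells. *Nhp2*, a core protein, read 40109 ± 4011, 13001 ± 1300 and 34926 ± 3493. LuM1 cells were 2.78-fold lower than Colon26 cells for *Dkc1* and 3.09-fold lower for *Nhp2*.

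*Gar1*, another core protein, read 32903 ± 3290 in Colon26 cells, 12680 ± 1268 in LuM1 cells and 22417 ± 2242 in NM11 cells. *Nop10*, the smallest core protein, read 8383 ± 838, 4201 ± 420 and 4807 ± 481. In NM11 cells *Nop10* was near its LuM1 level, with a log2 ratio of LuM1 over NM11 of -0.19 ± 0.20, and its ratio of LuM1 over Colon26, 1.996-fold lower, fell just short of 2-fold. All 4 genes of these particles were lower in NM11 than in Colon26 cells, 3 of them beyond the error, with a median log2 ratio of -0.42. The only other role with a median below 0 in that comparison was the box C/D particles, at -0.03. *Nop10* was higher in LuM1 than in NM11 cells when arrays were scaled to *Hprt* (0.39), by the authors' factors (0.22) or by quantiles (0.01).

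The genes for all 6 nucleolar proteins had their lowest level in LuM1 cells. *Ddx21*, an RNA helicase of the nucleolus, read 4166 ± 417 in Colon26 cells, 1583 ± 158 in LuM1 cells and 5121 ± 512 in NM11 cells, and its log2 ratio of LuM1 over NM11, -1.69 ± 0.20, was the lowest of the 40 genes, next to -1.68 for *Tsr1*. *Mybbp1a*, a nucleolar protein that binds Myb, read 32195 ± 3220, 15211 ± 1521 and 38921 ± 3892. The LuM1 level of both was 2-fold or more below either line, and both were higher in NM11 than in Colon26 cells beyond the error. With *Hprt* scaling neither was higher in NM11 than in Colon26 cells beyond the error.

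*Npm1*, which encodes the chaperone nucleophosmin, read 46650 ± 4665 in Colon26 cells, 26711 ± 2671 in LuM1 cells and 58723 ± 5872 in NM11 cells with its brightest probe. *Ncl*, which encodes nucleolin, read 33252 ± 3325, 17975 ± 1797 and 27606 ± 2761. *Gnl3*, the GTPase nucleostemin, read 3354 ± 336, 1625 ± 163 and 2759 ± 276. In all 3 genes LuM1 was lowest, and NM11 was above Colon26 for *Npm1* and below it for the other two. *Nolc1*, a chaperone of the small nucleolar particles, was 1.63-fold below the Colon26 level in LuM1 cells and 1.97-fold lower than in NM11 cells.

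Of 13 genes for the small subunit, all were lower in LuM1 cells, 12 beyond the scanner error against Colon26 cells and 13 against NM11 cells. *Wdr43*, which joins the early complex that also serves transcription by polymerase I, read 7256 ± 726 in Colon26 cells, 2639 ± 264 in LuM1 cells and 5548 ± 555 in NM11 cells. *Heatr1*, a partner in that complex, read 10907 ± 1091, 5780 ± 578 and 11034 ± 1103. *Wdr75*, the third partner on the list, read 5404 ± 540, 4967 ± 497 and 9195 ± 919. The partners spread widely in LuM1 over Colon26, with log2 ratios of -1.46 for *Wdr43*, -0.92 for *Heatr1* and -0.12 for *Wdr75*, and were closer in LuM1 over NM11, at -1.07, -0.93 and -0.89. *Wdr75* was higher in LuM1 than in Colon26 cells under quantile normalization (0.08) and under the authors' factors (0.32).

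Among the other proteins of the early small subunit particle, *Pwp2* had the lowest ratios in both comparisons. Its level was 2.25-fold below the Colon26 level in LuM1 cells and 2.30-fold lower than in NM11 cells. *Utp20* was 1.74-fold and 1.996-fold lower. *Nop14* and *Noc4l*, whose proteins bind each other, were 1.46-fold and 1.21-fold lower than in Colon26 cells and 1.43-fold and 1.84-fold lower than in NM11 cells. *Ddx10*, a helicase, read 482.6 ± 48.7, 353.8 ± 35.7 and 534.8 ± 53.7 in Colon26, LuM1 and NM11 cells. Under the authors' factors *Noc4l* was higher in LuM1 than in Colon26 cells (0.18), and under *Hprt* scaling *Nop14* was higher in LuM1 than in NM11 cells (0.07).

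The factors that act late on the small subunit fell into 2 patterns. *Tsr1*, a GTPase-like protein of the cytoplasmic particle, read 2885 ± 289 in Colon26 cells, 1176 ± 118 in LuM1 cells and 3779 ± 378 in NM11 cells. *Rrp12*, an export factor, read 5121 ± 512, 2759 ± 276 and 7155 ± 716. For both, NM11 was highest and LuM1 lowest, and the LuM1 level was 3.21-fold lower than in NM11 cells for *Tsr1* and 2.59-fold lower for *Rrp12*. Under *Hprt* scaling, neither was higher in NM11 than in Colon26 cells beyond the error.

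*Nob1*, the nuclease that makes the last cut of the small subunit RNA, read 3603 ± 360 in Colon26 cells, 1372 ± 137 in LuM1 cells and 2912 ± 291 in NM11 cells. *Bysl*, an assembly factor of the nuclear particle, read 8124 ± 812, 3435 ± 343 and 5670 ± 567. *Ltv1*, an assembly factor of the late particle, read 6081 ± 608, 2667 ± 267 and 4222 ± 422. For these 3 genes Colon26 was highest, NM11 was lower beyond the error, and LuM1 was at least 2-fold lower than Colon26.

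Of 11 genes for the large subunit, all were lower in LuM1 cells beyond the error in both comparisons, and 7 were higher in NM11 than in Colon26 cells beyond the error. *Pes1*, *Bop1* and *Wdr12* encode the partners of a complex, PeBoW, that is needed to process the large subunit RNA. *Pes1* read 11187 ± 1119 in Colon26 cells, 7268 ± 727 in LuM1 cells and 14783 ± 1478 in NM11 cells. *Bop1* read 6488 ± 649, 4285 ± 429 and 8051 ± 805. *Wdr12* read 3413 ± 341, 1985 ± 199 and 5841 ± 584. All 3 partners had the same order of lines, with NM11 highest and LuM1 lowest, and log2 ratios of LuM1 over Colon26 of -0.62, -0.60 and -0.78. Under *Hprt* scaling, only *Wdr12* of the 7 genes stayed higher in NM11 than in Colon26 cells beyond the error.

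*Noc2l*, a factor of the early large subunit particle, read 8094 ± 809 in Colon26 cells, 3547 ± 355 in LuM1 cells and 9896 ± 990 in NM11 cells. Its partner *Noc3l* read 500.0 ± 50.3, 374.8 ± 37.7 and 635.4 ± 63.7. The order of the lines was the same, while the LuM1 level was 2.28-fold lower than in Colon26 cells for *Noc2l* and 1.33-fold lower for *Noc3l*. *Noc3l* was higher in LuM1 than in Colon26 cells under the authors' factors (0.03).

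*Nip7*, an assembly factor of the large subunit, read 20115 ± 2012 in Colon26 cells, 7898 ± 790 in LuM1 cells and 16759 ± 1676 in NM11 cells. *Nop2*, a methyltransferase of large subunit RNA, read 18248 ± 1825, 8895 ± 890 and 16018 ± 1602. For both, Colon26 cells exceeded LuM1 cells by 2-fold or more, and NM11 lay between the other lines. *Ebna1bp2*, *Rrs1*, *Ddx18* and *Nop16*, further assembly factors, were 1.81-fold, 1.81-fold, 1.52-fold and 1.41-fold below the Colon26 level in LuM1 cells. Against NM11 cells they were 1.77-fold, 2.23-fold, 1.67-fold and 1.99-fold lower in the same order.

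The separate probes of the genes were compared as a check on the brightest probe, which stands for a gene above. There were 18 genes with several probes, 46 in all, and 22 genes with a single probe. All 68 probes were lower in LuM1 than in Colon26 cells and all 68 were lower than in NM11 cells. Over the 18 genes, the median range between the probes of a gene was 0.16 in the log2 ratio of LuM1 over Colon26. For NM11 over Colon26 the probes of *Ebna1bp2*, *Ncl*, *Npm1* and *Pwp2* had opposite directions.

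The probes of *Npm1* differed more than those of any other of these genes in LuM1 over Colon26, with log2 ratios of -0.80, -1.83 and -0.60. Those of NM11 over Colon26 were 0.33, -0.33 and 0.52. The dimmest *Npm1* probe thus placed NM11 below Colon26 cells and the brighter probes placed it above. In *Ncl* the brighter probe had log2 ratios of -0.89 for LuM1 over Colon26 and -0.27 for NM11 over Colon26, and the dimmer probe had -1.04 and 0.22.

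**Figure D3:**
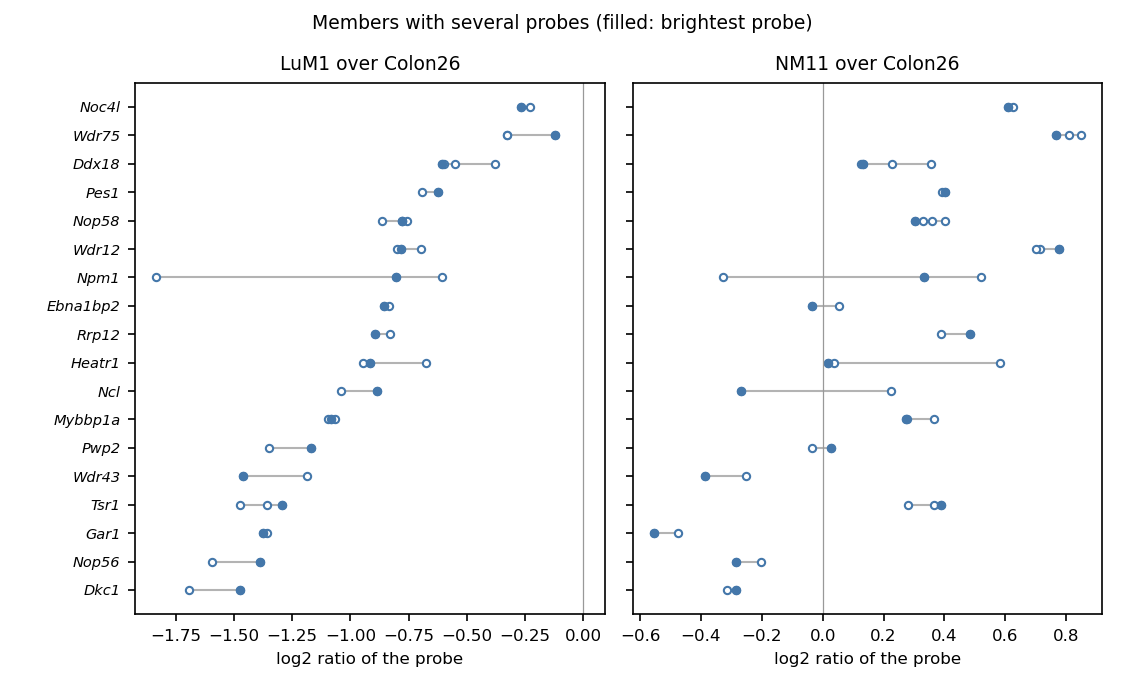
Log2 ratio of every probe for the 18 ribosome biogenesis genes with several probes, with the brightest probe filled and a line over the range of a gene. All probes lie below 0 for LuM1 over Colon26 (left), and the *Npm1* probes spread over 1.23 there.

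Bright genes as a whole were lower in LuM1 cells, so the ratio was also set against signal. Over all genes, the median log2 ratio between LuM1 and Colon26 cells was -0.01 in the dimmest 10% and -0.30 in the brightest 10% of genes, and of LuM1 over NM11 it was 0.03 and -0.35. Of the 40 ribosome biogenesis genes, 10 were in the brightest 10%, with a median of -1.06 over Colon26 and -0.97 over NM11. A total of 2793 other genes had a mean signal within the middle range of the 40 genes, from 2647 to 11339. Among them the median was -0.28 over Colon26 and -0.24 over NM11, with 10.6% and 7.70% lower in LuM1 cells by 2-fold or more. The 40 genes lay 0.62 below these genes over Colon26 and 0.76 below them over NM11, on the log2 scale.

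**Figure D4:**
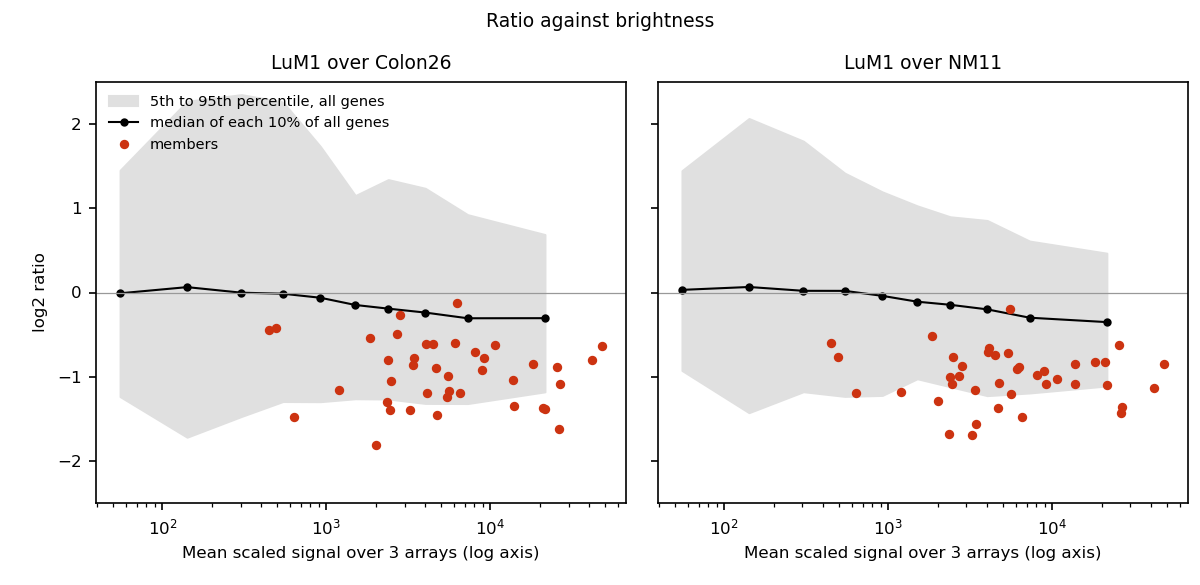
Log2 ratio of LuM1 over Colon26 (left) and over NM11 (right) against the mean scaled signal over 3 arrays (log axis). The black line joins the median of each 10% of all genes and the grey band spans their 5th to 95th percentiles, and the 40 ribosome biogenesis genes (red) lie below the black line, as far as it reaches, except *Wdr75* in the left panel and *Nop10* in the right panel.

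The wider machinery was examined with genes listed separately from the 40. Of 93 other ribosome biogenesis genes, 91 were clearly detected in every line. LuM1 was the lowest line for 73 of them, against 45.7% of all named genes. Their median log2 ratio of LuM1 over Colon26 was -0.56, with 79 lower and 12 higher, against 58.3% of all named genes lower. The fold was 2 or more for 12 lower genes (13.2%) and 2 higher genes (2.20%), against 11.8% and 13.1% of all named genes. The share at least 2-fold lower was thus near that of all genes. Of LuM1 over NM11 the median was -0.54. Lower were 84 genes, against 57% of all named genes, and at least 2-fold lower were 14 (15.4%), against 8.5%. The lowest ratios of LuM1 over Colon26 were those of *Taf1d* (-2.01), a factor of the polymerase I promoter complex, *Nle1* (-1.98), an assembly factor of the large subunit, and *Pop1* (-1.72), a protein of the RNases that cut precursor RNA. *Taf1a*, another factor of the promoter complex, ran the other way, at 36.7 ± 7.36 in Colon26 cells, 86.4 ± 10.0 in LuM1 cells and 130.4 ± 13.8 in NM11 cells. *Nol8*, a nucleolar protein, read 453.8 in Colon26 cells, 927.7 in LuM1 cells and 1002 in NM11 cells, so it was also lowest in Colon26 cells.

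The transcripts for the proteins of the finished ribosome were lower in LuM1 cells as well. Of 79 cytosolic ribosomal protein genes, all well above background, LuM1 was the lowest line for 76, against 45.7% of all named genes. The median log2 ratio was -0.50 for LuM1 over Colon26, with 77 lower, and -0.45 for LuM1 over NM11, with 78 lower. Of all named genes, 58.3% and 57% were lower in these comparisons. A fall of 2-fold or more was seen for 2 of them against Colon26 cells and for 0 against NM11 cells. Both were below the shares of all named genes, 11.8% and 8.5%. *Rps14* (-1.29) and *Rps2* (-1.16) had the lowest ratios to Colon26 cells, and *Rpl22* (0.30) the highest. These genes are bright, and the brightest 10% of all genes had a median of -0.30 over Colon26. Many of them have processed copies in the genome that can share a probe sequence, which was not examined here.

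*Myc*, the transcription factor that is known to drive these genes, read 5957 in Colon26 cells, 2653 in LuM1 cells and 5212 in NM11 cells, so LuM1 was lowest while NM11 and Colon26 were within the scanner error of each other. Its log2 ratio was -1.17 for LuM1 over Colon26 and -0.97 for LuM1 over NM11. *Mxd1*, *Mxd4*, *Mxi1* and *Mnt* encode antagonists that share the partner Max, and the first 3 were highest in LuM1 cells. *Mxd1* read 134.2, 306.6 and 132.8 in Colon26, LuM1 and NM11 cells, and *Mxd4* read 106.3, 228.3 and 79.6. *Mxi1* read 2387, 2791 and 1414, with a log2 ratio of 0.23 ± 0.20 for LuM1 over Colon26. *Mnt* read 4436, 5240 and 5767, and its LuM1 and NM11 levels were within the scanner error of each other. *Max* itself had log2 ratios of 0.22 ± 0.20 for LuM1 over Colon26 and -0.13 ± 0.20 for LuM1 over NM11. *Mycl* was not well above background in any line and *Mycn* was so only in LuM1 cells. The part of these factors in the level of the ribosome biogenesis genes was not tested.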

How the data were processed

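The authors cultured each line, labelled its RNA with a low-input kit and hybridized it to a 1-colour Agilent mouse array. The deposited intensity values are processed signals per spot from Agilent Feature Extraction 11.5.1.1, background-subtracted and not scaled between arrays, and the deposited flags (0 or 1) mark outlier spots and spots above background. The authors also deposited intensity values for the series, which equal the scanner intensity times 1 constant on each array, of 0.654, 0.829 and 0.706 in the order Colon26, LuM1 and NM11. How these factors were set is not given in the sources used here.

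Control spots and outlier spots (74 to 137 per array) were left out, and the 10 spots of each of 300 repeated probes were averaged. Each array was scaled to the 75th percentile of its signals, which was 581.1, 625.1 and 551.5 before scaling for Colon26, LuM1 and NM11. RefSeq accessions gave a gene name to 58.3% of 56605 probes. The brightest probe stood for its gene. Ratios were taken on the log2 scale where both arrays were well above background, and where only 1 was, the ratio was a bound against the dimmest detected signal (26.4, 20.1 and 19.6) and entered only the counts past 2-fold. Depth does not apply to arrays, and the number of arrays, 1 per line, limits the precision.

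All 40 genes are named, and of other lists the genes with the most extreme ratios and the Myc network. The genes and lists were chosen with earlier results of these data known, so they are a description and no independent evidence. The array was designed on an older assembly, so no gene coordinates are given except those of the RefSeq start windows. The alternatives were unscaled signals, other scalings (by the median of measured probes or by *Hprt*), quantile normalization, normexp correction (offset 50, limma 3.58.1 in R 4.3.3), the authors' processed values, a looser detection mark, keeping dim probes, averaging the probes of a gene, the brightest probe of 1 line, and a 1.5-fold threshold. A comparison with genes of like brightness, and the alternatives for counts over all 3 lines, were added after seeing the data. Python 3.11.15 with numpy 2.4.6, pandas 2.3.3 and matplotlib 3.10.9 was used.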

Additional observations from a re-analysis of the deposited data

Results flagged for a closer look

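There were 16 ribosome biogenesis genes that were lower in LuM1 cells and higher in NM11 cells than in their parental line Colon26, both beyond the scanner error, so that the sublines differed from it in opposite directions. They were *Fbl*, *Nop58*, *Npm1*, *Nolc1*, *Ddx21*, *Mybbp1a*, *Noc4l*, *Rrp12*, *Tsr1*, *Pes1*, *Bop1*, *Wdr12*, *Nop16*, *Noc2l*, *Noc3l* and *Rrs1*. Among all named genes 6.56% had this pattern, and of other ribosome biogenesis genes 22 of 91 had it. Of the 40 genes, 39 were lower in LuM1 than in Colon26 cells beyond the error. The count thus largely repeats the 17 genes higher in NM11 cells, against 30.6% of all named genes. The opposite pattern was seen for 603 of 12249 named genes. It could not occur among the 40 genes, as none of them was higher in LuM1 cells. The number of genes lower in LuM1 and higher in NM11 cells depended on the scaling. It was 12 without scaling, 11 under the authors' values and 1 (*Wdr12*) under *Hprt* scaling. For these scalings the share of all named genes was not recomputed. Of 3 *Npm1* probes, 1 was lower in NM11 than in Colon26 cells (-0.33). With 1 array per line the difference between the sublines was not tested, and both ratios share the Colon26 array.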

How the results depend on the processing

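Of 189 recomputed counts and medians over the 40 genes, 161 stayed within the scanner error or within 1.5 times the value above and 28 did not. Part of the 161 could not have moved. All 40 genes were well above background on every array, so a looser detection mark or keeping dim probes left their own counts and medians unchanged. Any scaling by 1 factor per array left the distance between their median and that of all genes unchanged. For LuM1 over Colon26, quantile normalization left 1 gene higher. The authors' values gave a median of -0.46 with 3 genes higher (*Wdr75*, *Noc3l* and *Noc4l*) and 4 at least 2-fold lower, against 6.09% of all named genes. For LuM1 over NM11, 10 genes were at least 2-fold lower without scaling, against 6.32% of all named genes. *Hprt* scaling gave a median of -0.40 there with 2 genes higher (*Nop10* and *Nop14*) and 2 at least 2-fold lower, against 3.52%. Quantile normalization gave -0.79 with 1 higher and 10 lower, against 8.62%. The authors' values gave -0.58 with 1 higher and 5 lower, against 4.43%. For NM11 over Colon26, *Hprt* scaling gave -0.37 with 4 higher and 5 at least 2-fold lower. Over all genes it gave a median of -0.51 there, with 20.1% at least 2-fold lower. At 1.5-fold, 34 genes were lower in LuM1 than in Colon26 cells and 38 were lower in LuM1 than in NM11 cells. In NM11 over Colon26 3 were higher and 1 lower. The share of all named genes past 1.5-fold was not computed, so these counts have no background beside them. Genes whose LuM1 level was 2-fold or more below both lines numbered 7 without scaling, 6 by quantiles, 2 with *Hprt* and 1 with the authors' values. Genes lower in LuM1 and higher in NM11 numbered 1 with *Hprt*. The matching shares of all named genes were not recomputed. The cause of these moves was not tested, except that a scaling factor moves all genes alike. The median of all genes moved by 0.45 and 0.41 with the authors' values (LuM1 over Colon26 and over NM11), by 0.10, 0.59 and -0.49 with *Hprt* (LuM1 over Colon26, LuM1 over NM11 and NM11 over Colon26), and by 0.11 and 0.18 without scaling (LuM1 over Colon26 and over NM11). The median of the 40 genes minus that of all genes ran from -0.85 to -0.66 for LuM1 over Colon26, from -0.93 to -0.75 for LuM1 over NM11 and from 0.08 to 0.18 for NM11 over Colon26 in all alternatives with a filter on dim probes. Without that filter it was -0.57, -1.06 and 0.37, since probes below background then count among all genes. Against genes of like brightness it was -0.62, -0.76 and 0.13. Without scaling the higher share of all genes past 2-fold was 68.6% for LuM1 over NM11, with the authors' values it was 81.4%, and with *Hprt* it was 20.1% for NM11 over Colon26 in place of 51.4%. No paired analysis was possible because each line had 1 array. The ratio of a dim member such as *Taf1a* of the wider list rests on a signal near background.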
